A study of Mus musculus with 12 samples.

Results

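Transcript abundance in mouse blastocysts was set against that in embryonic stem (ES) cells for 11050 genes, out of the 45801 genes that the series measured in either material. The 11050 were the autosomal protein-coding genes that both deposited tables list and whose blastocyst mean was above 0. Lars2, with a deposited mean of 964623 in blastocysts and 3163 in ES cells, was left out by the rule that defines the comparison, and all levels below are shares of the rest. The mean of each gene was scaled so that the 11050 means of a material summed to 1000000, and a level on this scale is given in CPM, counts per 1000000. The log2 ratio is the blastocyst level over the ES cell level, with 1 CPM added to each, so it understates the difference of genes at a low level. A positive ratio means a higher level in blastocysts.

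The study's groups were Dis3L WT blastocysts, Dis3L KO blastocysts, Dis3L WT ES cells and Dis3L KO ES cells, with 3 samples each in the labels. Dis3l encodes a catalytic subunit of the cytoplasmic exosome, which degrades RNA from the 3′ end. Blastocysts were collected 96 hours after hCG from superovulated, mated females and were sequenced as single embryos, from cDNA cut and tagged by Tn5 transposase. How that cDNA was primed, and the mouse strain, are not given in the sources used here. ES cell lines had been derived from blastocysts on inactivated mouse embryonic fibroblasts, were grown in serum with LIF, and were sequenced as stranded libraries of total RNA after ribosomal RNA was removed. Each table gives 1 mean per gene over both genotypes, so a difference between the materials carries no replicate error and no p-value here. A blastocyst and an ES cell library differed in material, in protocol and in the cells' surroundings at once, and these cannot be told apart. In such bulk libraries, fewer cells of a type and less RNA per cell cannot be told apart either.

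The blastocyst is the embryo just before implantation. An outer epithelium, the trophectoderm, pumps fluid into a cavity and later forms placenta, while the inner cell mass holds the epiblast, source of the body, and the primitive endoderm, an epithelium that takes up nutrients and lays down basement membrane. ES cells are derived from the epiblast and divide without limit while factors such as Oct4 (Pou5f1), Sox2 and Nanog keep them pluripotent.

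The genes more abundant in blastocysts by 4-fold or more numbered 771, which is 6.98% of all genes compared. Those more abundant in ES cells by 4-fold or more numbered 1540, or 13.9%. These shares are the background for every list count below. At 8-fold the counts were 303 and 713. The median log2 ratio of all genes was −0.17, its quartiles were −1.24 and 0.75, and 50.8% of the genes lay within 2-fold. The 771 genes took 19.4% of the blastocyst total and 2.24% of the ES cell total. The 1540 genes took 21% of the ES cell total and 2.11% of the blastocyst total. Across genes, which are not independent replicates, Pearson's r of the log2 levels was 0.66. The ES cell table holds no mean under 2.08, and genes missing from it have no ratio, whereas genes that are nearly absent from blastocysts do. Why a gene is missing there was not tested, so having no ES cell value does not mean that ES cells lack the gene.

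**Figure D1:**
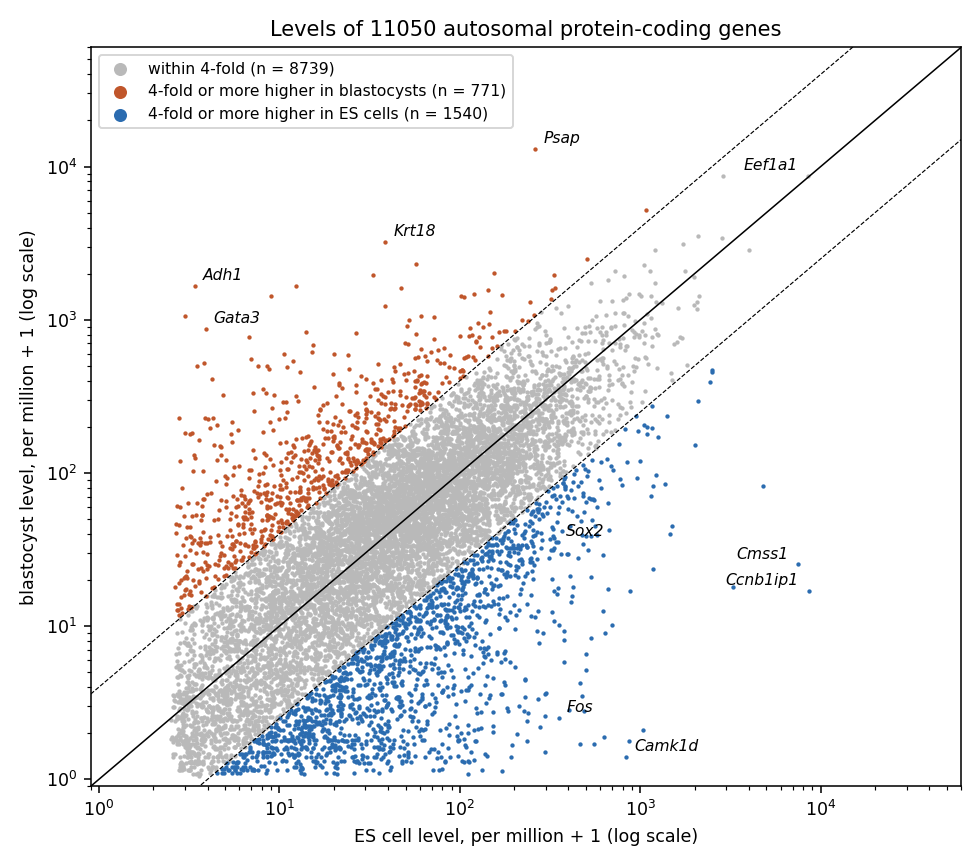
Level in CPM plus 1 in ES cells (x axis) and in blastocysts (y axis), both on log scales; each point is 1 of the 11050 genes, the solid line marks equal levels and the dashed lines mark 4-fold. The 771 genes above the upper line include Adh1, Gata3, Krt18 and Psap, and the 1540 below the lower line include Ccnb1ip1, Cmss1 and Camk1d, while Eef1a1 lies on the line of equal levels.

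Read counts and spread were recovered from the means. Each mean adds up whole reads divided by a size factor per library, so low means could be solved for the reads in every count column: 6 columns for blastocysts and 4 for ES cells, where the labels list 6 samples. The columns carry no name and were tied to no sample or genotype. Solved genes held 102600 to 227138 reads per blastocyst column and 738127 to 1209155 per ES cell column. These are not library depths, since fewer and lower genes were solved in blastocysts. Over all genes compared, the deposited means summed to 2396656 in blastocysts and 1390378 in ES cells. Of the nonzero counts recovered, 96.7% were even in blastocysts and 49.6% in ES cells. At 5 CPM or more, the median standard deviation of a gene between columns was 1.21 on the log2 scale in blastocysts (3002 genes) and 0.32 in ES cells (9492 genes). The 2 spreads cover different ranges of level, since means were solved up to 80 in blastocysts and up to 500 in ES cells, and do not compare like with like. Both sides could be solved for 4903 genes, all low in blastocysts. For 1.94% of these every blastocyst column lay above every ES cell column, and for 31.4% every ES cell column lay above every blastocyst column. Of the genes 4-fold higher in ES cells, 1313 were solved on both sides and 1176 had columns that did not overlap. Of those 4-fold higher in blastocysts, only 76 were solved, and 35 did not overlap. The columns are parts of the same means that set the 4-fold calls, so they describe spread and are no separate support.

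Genes of the trophectoderm, of endocytosis and of lipid handling were among the 15 with the highest ratios. Adh1, an alcohol dehydrogenase that oxidises retinol, stood at 1655 CPM in blastocysts and 2.40 in ES cells (chromosome 3, 138260991 to 138290698, GRCm38), a log2 ratio of 8.93. Its ES cell columns read 2.30, 0.68, 0 and 6.63 CPM. The WNK-family kinase gene Wnk2 followed with 1051 against 1.99 CPM. Gata3, a transcription factor of the trophectoderm, was at 865 CPM in blastocysts and at 1.72, 3.42, 5.56 and 0.95 in the ES cell columns (log2 ratio 7.79). All ES cell columns of these genes were near 0.

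Dab2, an endocytic adaptor, reached 1421 against 7.98 CPM, a log2 ratio of 7.31. Satb1, a chromatin organiser, was at 501 against 2.52 CPM. Fam101b, a regulator of actin, was at 523 against 2.80. Gm2a, the lysosomal activator of ganglioside breakdown, was at 1652 against 11.4 CPM (log2 ratio 7.05). Stard10, a phospholipid transfer protein, was at 772 against 5.78 CPM. The next 7 were Cubn, Krt18, Cebpa, Eomes, Lpcat4, Khdc3 and Rab3il1, with log2 ratios from 6.59 down to 5.92. Cebpa is a transcription factor of epithelia and fat cells, Lpcat4 an acyltransferase of phospholipid remodelling, and Khdc3 a maternal protein of the egg cortex. Khdc3 stood at 498 against 6.63 CPM.

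**Figure D2:**
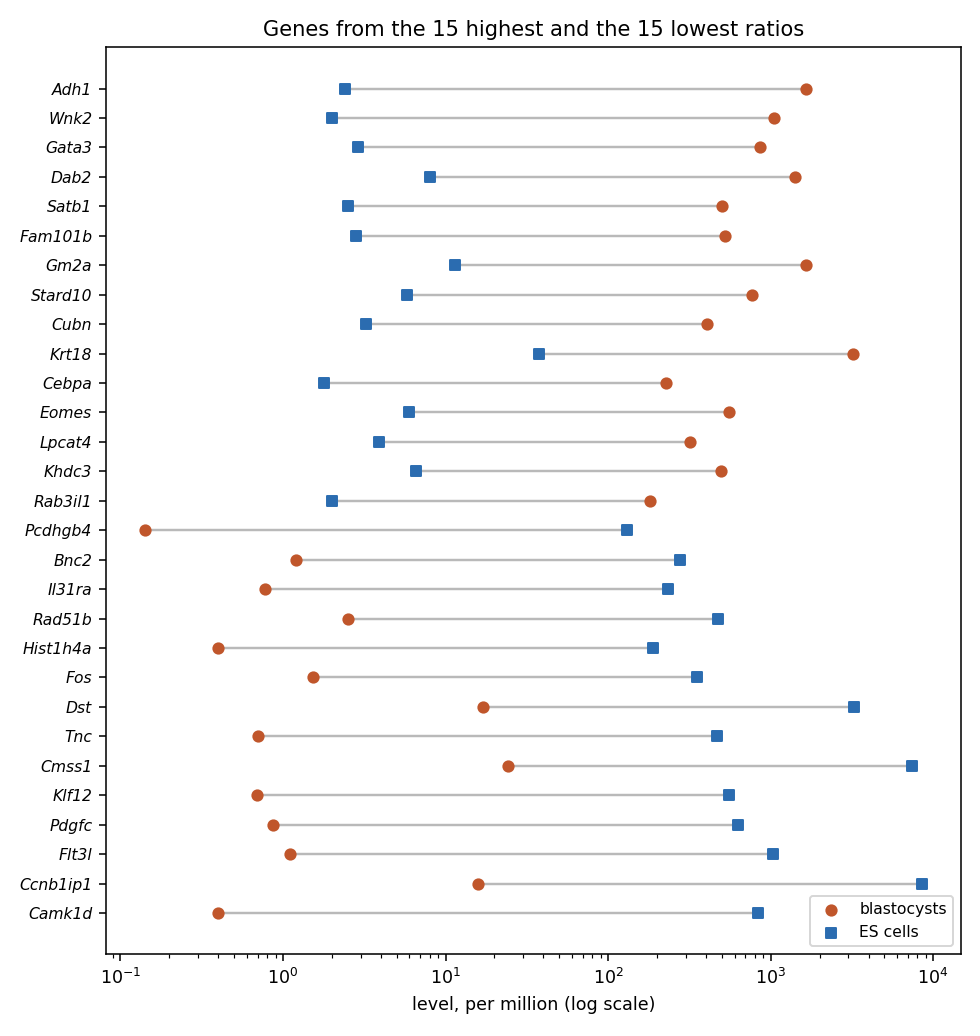
Level CPM (x axis, log scale) in blastocysts (circles) and ES cells (squares) of genes from the 15 highest and the 15 lowest ratios, among genes with a proper symbol and at least 100 CPM in the higher material. Blastocyst levels of the upper genes run from 180 (Rab3il1) to 3204 (Krt18), and ES cell levels of the lower genes from 131 (Pcdhgb4) to 8559 (Ccnb1ip1).

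Trophectoderm markers served as the check of the embryo label. Of 10 trophectoderm transcription factors with a ratio, 7 were 4-fold or more higher in blastocysts and none in ES cells, with a median log2 ratio of 3.63, against 6.98% and −0.17 over all genes. Behind Gata3 came Eomes, needed for trophoblast stem cells, at 552 against 5.92 CPM. Tfap2a, an AP-2 factor, stood at 228 CPM against ES cell columns of 1.15, 2.05, 8.34 and 0. Elf3, an epithelial ETS factor, was at 685 against 14.4 CPM, and Id2, an inhibitor of helix-loop-helix factors, at 699 against 48.4. Tfap2c (161 against 13.9) and Msx2 (18.7 against 2.60) completed the 7. The other 3 were within 4-fold. Tead4, the Hippo-pathway factor that starts the trophectoderm programme, was at 140 against 76.8 CPM, Klf6 at 224 against 193 and Grhl2 at 203 against 206.

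Another 5 listed factors had no ES cell value and so no ratio. Cdx2, which defines the trophectoderm, was at 779 CPM in blastocysts, Gata2 at 274, Elf5 at 209 and Hand1 at 1.03, while Dlx3 was listed at 0. The Tead family split: Tead2 was at 249 against 31.4 CPM and Tead3 at 61.1 against 9.14, both past 4-fold, while Tead1 was at 230 against 477. In the Hippo list of 17 genes, 2 were 4-fold higher in each material, and Ctgf and Amotl1 were the 2 higher in ES cells. Over all genes the shares were 6.98% in blastocysts and 13.9% in ES cells.

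The epithelial machinery followed the same direction. Of 23 trophectoderm epithelium genes, 13 were 4-fold or more higher in blastocysts and none in ES cells, and the median log2 ratio was 2.79. The simple-epithelium keratins Krt18 (3204 against 37.7 CPM), Krt8 (2297 against 56.0), Krt7 (164 against 2.60) and Krt19 (19.6 against 2.92) were all among them. Krt7 read 2.30, 3.42, 2.78 and 1.89 CPM in the ES cell columns. Tight-junction genes included Cldn7 (498 against 7.56), Cldn4 (1447 against 169), Ocln (166 against 11.4), Cgn (169 against 17.6) and F11r (402 against 57.1). Of the desmosome genes, Dsp (465 against 54.9) and Dsc2 (96.5 against 4.52) were past 4-fold, while Dsg2 (326 against 269) and Jup (193 against 119) were not. Epcam stood at 1130 against 146 CPM and Cdh1, E-cadherin, at 764 against 240. The scaffold gene Tjp1 (195 against 205) and Lgals3 (81.1 against 96.1) had ratios just under 0.

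Fluid transport genes were less uniform. Of 13, 2 were 4-fold higher in blastocysts, against 6.98% of all genes. They included Aqp3, a water and glycerol channel (282 against 37.5 CPM). Atp1b1, a beta subunit of the sodium pump, was at 289 against 98.9 CPM and Atp1b3 at 115 against 103. Slc7a2, a cationic amino acid carrier, was the 1 gene 4-fold higher in ES cells (3.78 against 33.8). Aqp8, Aqp9 and the amino acid carrier Slc6a14, at 71.6, 184 and 198 CPM in blastocysts, had no ES cell value.

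Primitive endoderm markers were also higher in blastocysts. Of 11 with a ratio, 6 were 4-fold or more higher there and 1 in ES cells, with a median log2 ratio of 3.38. Gata4, a factor of the lineage, stood at 177 CPM against ES cell columns of 2.30, 2.74, 2.78 and 0.95. Sox7 was at 36.7 against 2.62 CPM. Pdgfra, a receptor on these cells, was at 200 against 64.5, and Fst, an activin antagonist, was the member higher in ES cells (1.32 against 26.4). Gata6 and Sox17, at 311 and 51.5 CPM in blastocysts, had no ES cell value. The median of this list was 1.66 when the blastocyst level was taken from the negative side of the authors' comparison alone.

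The uptake receptors and the lysosome stood beside them. Of 23 lysosome and endocytosis genes, 9 were 4-fold higher in blastocysts and none in ES cells, with 22 of the 23 ratios above 0 and a median of 1.58. The multiligand receptor formed by Cubn (409 against 3.24 CPM), Amn (59.6 against 2.71) and Lrp2 (1402 against 104), with its adaptor Dab2, belongs to both lists. Psap, precursor of the saposins that help to break down sphingolipids, was at 12987 CPM in blastocysts and 261 in ES cells (log2 ratio 5.63). Other enzymes and membrane proteins past 4-fold were Grn (618 against 68.3), Ctsc (284 against 35.5), Cd63 (523 against 80.8) and Lgmn (349 against 59.3). The proteases Ctsb (212 against 173) and Ctsd (486 against 417) were near equal. The 23 genes summed to 23772 CPM in blastocysts and 3534 in ES cells.

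Basement membrane genes had a median log2 ratio of 1.46 over 16 genes, with 5 at 4-fold higher in blastocysts and 1 in ES cells. Laminin chains were unequal: Lama1 was at 1569 against 142 CPM and Lamb1 at 1424 against 101, while Lamc1 was at 1064 against 851 and Lama5 at 437 against 672. Collagen IV followed with Col4a1 at 559 against 105 and Col4a2 at 319 against 94.0. The nidogens went opposite ways, with Nid1 at 845 against 201 CPM and Nid2 at 92.4 against 381.

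Actin cortex and adhesion genes had 9 of 25 past 4-fold in blastocysts and 3 in ES cells. Non-muscle myosin Myh10 (2023 against 153 CPM) and the Arp2/3 subunits Arpc5 (543 against 73.7) and Arpc2 (793 against 115) led, whereas Myh9 (772 against 983) and Actb (3432 against 2853) did not differ by 2-fold. The annexins split: Anxa2 was at 489 against 86.4, and Anxa1 at 3.10 against 137. Cholesterol synthesis genes had 3 of 17 past 4-fold in blastocysts, none in ES cells and a median of 1.05. Over all genes these were 6.98%, 13.9% and −0.17. Dhcr7, the last enzyme of the pathway, stood out at 124 against 2.43 CPM. Among lipid genes, the fatty acid binding protein Fabp3 was at 1039 against 71.4 and the desaturase Scd1 at 402 against 35.7, while the lipid exporter Abca1 was at 26.7 against 313 CPM.

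Pluripotency factors leaned to ES cells. Of 27, 7 were 4-fold or more higher there and none in blastocysts, and the median log2 ratio was −0.87. Over all genes these were 13.9%, 6.98% and −0.17. Sox2 was at 34.5 CPM in blastocysts and at 348, 380, 341 and 329 in the ES cell columns (log2 ratio −3.30). The ES cell columns of Sox2 were close together. Pou5f1 was at 110 against 692 CPM, Nanog at 90.8 against 379 and the orphan receptor Esrrb at 48.4 against 536. The signalling genes Fgf4 (40.7 against 368) and Tdgf1 (118 against 989) and the threonine dehydrogenase Tdh (41.2 against 669) were the rest. Members at near equal levels included Zfp42 (195 against 205), Fbxo15 (466 against 504) and Nr5a2 (169 against 143). Klf5, which is active in both inner cells and trophectoderm, was at 1118 against 279 CPM, just under 4-fold, while Klf4 was at 71.7 against 205. Dppa3, at 167 CPM in blastocysts, had no ES cell value. The median of this list was −1.60 with the positive side of the authors' blastocyst comparison alone.

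Within enzyme families the isoforms differed. The de novo DNA methyltransferases Dnmt3a (156 against 35.7 CPM) and Dnmt3b (696 against 184) were higher in blastocysts, the cofactor Dnmt3l was near equal (353 against 346), and the maintenance enzyme Dnmt1 was at 185 against 420. Tet1, which oxidises methylcytosine, was at 177 against 1091 CPM, and Tet3 at 24.6 against 19.8. Of the FGF receptors, Fgfr1 was at 282 against 42.8 and Fgfr2 at 755 against 1693. Hexokinase Hk2 was at 620 against 267 CPM, and Hk1 at 15.9 against 23.6. The let-7 inhibitors Lin28a (68.7 against 246) and Lin28b (1.99 against 44.7) were both lower in blastocysts.

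Early response, growth signal and stress lists had negative medians, with members on both sides. Over all genes, 13.9% were 4-fold higher in ES cells and 6.98% in blastocysts, with a median of −0.17. Of 9 immediate early genes, which are induced within minutes of a stimulus, 5 were 4-fold higher in ES cells and 1, Myc, in blastocysts (45.4 against 5.96 CPM). Fos was at 1.52 against 353 CPM, with blastocyst columns of 0 at the lowest, 0 at the median and 7.44 at the highest. Atf3 had blastocyst columns from 0 to 1.19, with a median of 0, and ES cell columns of 150, 119, 113 and 95.7 CPM, which did not overlap. Of 17 FGF and ERK feedback genes, 6 were 4-fold higher in ES cells, among them Spred1 (14.7 against 182), Etv4 (6.63 against 84.3) and Spry4 (9.79 against 81.3), and 2 in blastocysts, with 7 of the 17 ratios above 0. Of 18 p53 targets, 5 were 4-fold higher in ES cells and none in blastocysts, with a median of −1.40. They included Trp53inp1 (33.3 against 480), Plk2 (10.5 against 176) and the cell-death gene Pmaip1 (10.1 against 89.4). Of 19 genes of the integrated stress response, 5 were 4-fold higher in ES cells and none in blastocysts. The cystine carrier Slc7a11 was at 9.06 against 112 CPM and Cth, which makes cysteine, at 30.2 against 515.

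Cell cycle genes had a median of −0.53 over 29 genes, with 25 within 4-fold. Of the other 4, the cyclins Ccnd1 and Ccnd2 and the kinase Cdk6, which drive entry into the cycle, were higher in ES cells. Ccnd1 was at 14.9 against 247 CPM and Cdk6 at 5.66 against 176. Ccnd2 ran from 0 to 5.72 CPM over the blastocyst columns, with a median of 0, against 152, 86.8, 108 and 95.7 in the ES cell columns. The D-type cyclin Ccnd3 was within 4-fold, at 163 against 72.0. The mitotic kinase Plk1 was the 1 member 4-fold higher in blastocysts (195 against 45.5). In glycolysis, 16 of 20 genes were within 4-fold and the other 4 were higher in ES cells, where 13.9% of all genes were: Pkm (466 against 2501), Ldha (31.2 against 282), Pdk1 (6.98 against 131) and the lactate carrier Slc16a3 (0.93 against 12.6).

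**Figure D3:**
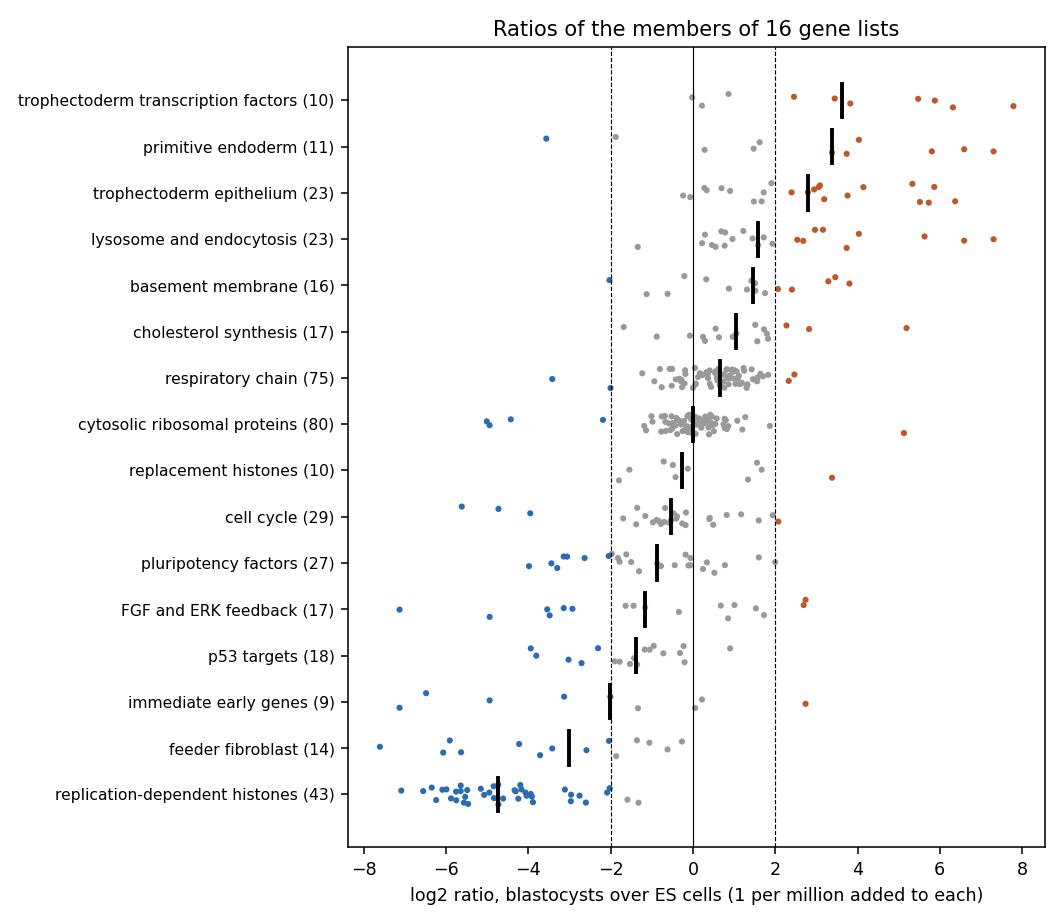
Log2 ratio of blastocyst over ES cell level (x axis, 1 CPM added to each) for each member of 16 gene lists (rows, number of members in brackets); points are genes, black bars are list medians, dashed lines mark 4-fold and the dots are spread vertically only for legibility. Medians run from 3.63 for trophectoderm transcription factors to −4.74 for replication-dependent histones, with cytosolic ribosomal proteins at 0.00.

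Replication-dependent histones had the lowest median ratio of the 42 lists. These genes make the bulk histones of S phase, and their messages end in a stem-loop in place of a poly(A) tail. Of 43, 41 were 4-fold or more higher in ES cells, with a median log2 ratio of −4.74, against 13.9% and −0.17 over all genes. They summed to 165 CPM in blastocysts and 4101 in ES cells. Near-identical copies can share reads, so values of single genes are uncertain. Hist1h4h had blastocyst columns of 0 at the lowest and the median and 2.79 at the highest, against 144, 187, 66.0 and 152 CPM in ES cells. Hist1h3e ran from 0 to 6.55 in blastocysts, with a median of 0, against 280, 274, 82.0 and 270. Neither gene's columns overlapped, and the third ES cell column was the lowest for both. Of the 41 genes solved on both sides, 35 had ES cell columns wholly above the blastocyst columns, against 31.4% of all solved genes. The columns come from the same means as the ratios and are no separate support for them.

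The stem-loop is the feature that sets these messages apart, so its letters are shown for 1 gene of each class and for H2afx. The search was for the 16 letters in capitals, with letters 4, 10 and 13 left free, on the transcript strand within 100 bases after the stop codon of GENCODE M21 transcripts (GRCm38). It found them in 30 of the 43 replication-dependent histones, or 69.8%, and in 1 of 10986 other genes, or 0.0091%, which was H2afx. Each line reads 5′ to 3′ in the transcript's direction.
Hist1h1c: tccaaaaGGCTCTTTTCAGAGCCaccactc
Hist1h2ab: aaacaaaGGCTCTTTTCAGAGCCacccaca
Hist1h2bg: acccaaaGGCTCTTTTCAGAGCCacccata
Hist1h3e: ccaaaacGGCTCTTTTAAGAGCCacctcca
Hist1h4h: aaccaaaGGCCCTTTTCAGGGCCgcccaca
H2afx: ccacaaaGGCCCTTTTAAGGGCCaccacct

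All 6 lie in the 3′ untranslated region. The H1 site of Hist1h1c is at chr13:23739505-23739534 on the plus strand, and its 16 letters begin at base 25 after the stop codon. The letters of Hist1h2ab (chr13:23751565-23751594, plus strand) and Hist1h2bg (chr13:23571836-23571865, plus strand) begin at bases 47 and 30. Those of Hist1h3e (chr13:23561896-23561925, minus strand) and Hist1h4h (chr13:23531451-23531480, plus strand) begin at bases 37 and 32. The H2afx site is at chr9:44335233-44335262 on the plus strand, with its letters from base 47. Of the histone sites, 15 of the 30 genes carried the letters of Hist1h1c.

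Levels differed in size among these genes. Hist1h1c was at 35.6 against 284 CPM (log2 ratio −2.96), Hist1h2ab at 0.60 against 85.1 and Hist1h2bg at 0.68 against 106. H2afx, known for both a stem-loop message and a polyadenylated one, was at 174 against 190 CPM, a log2 ratio of −0.13. The 30 genes with the letters had a median log2 ratio of −4.28 and the 13 without them −4.84. A variant stem-loop, or one past the annotated transcript end, would be missed by the search. This split therefore does not separate messages with a stem-loop from those without. The 10 replacement histones had a median of −0.28, with 1 of 10 past 4-fold: H2afy, macroH2A, at 748 against 71.0 CPM. Messages of replacement histones are polyadenylated, but H2afx, with its stem-loop message as well, is 1 of these 10. H3f3b was at 554 against 188, H2afz at 272 against 382 and H3f3a at 47.2 against 167 CPM.

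Among the 15 genes with the lowest ratios were long genes, matrix genes and genes that overlap RNA genes. Camk1d, a calcium-dependent kinase gene of 421059 bases, was at 0.40 against 835 CPM (chromosome 2, 5293457 to 5714515), a log2 ratio of −9.23. Its blastocyst level came from 8 reads in 1 of the 6 columns. Ccnb1ip1, a meiotic ubiquitin ligase gene, was at 15.9 against 8559 CPM. Rpph1, the RNA of ribonuclease P, lies inside its span, as do Snord32a, Snord33, Snord34 and Snord35a and the coding gene Rpl13a in the span of Flt3l (1.11 against 1039). Cmss1 (24.2 against 7457) overlaps the gene Filip1l. In these 3, reads of the gene and of what overlaps it may be mixed, and their part in the result was not tested.

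The growth factor gene Pdgfc was at 0.87 against 626 CPM, and the transcription factor genes Klf12 and Bnc2 at 0.69 against 554 and 1.20 against 278. Tnc, a matrix protein, was at 0.71 against 465, and Dst, a giant linker of the cytoskeleton, at 17.0 against 3250. Rad51b, a recombination gene, was at 2.51 against 475 CPM. The cytokine receptor gene Il31ra had ES cell columns of 775, 52.7, 80.6 and 29.4 CPM, so 1 column held most of its level. Pcdhgb4, a protocadherin that shares its last exons with its cluster, rested on 2 blastocyst reads. Most blastocyst counts being even, reads may not be independent molecules, so no counting interval is given. Hist1h4a rested on 4 blastocyst reads.

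Gene structure moved with the ratio across all genes. Genes were split into 5 bins of equal size by intronic length. The median log2 ratio went from 0.26 in the shortest bin through 0.17, −0.03 and −0.28 to −1.01 in the longest. The share 4-fold higher in ES cells was 9.47% in the shortest bin and 28.4% in the longest, where introns summed to 65558 bases or more. The share 4-fold higher in blastocysts went from 8.65% to 4.57%. Among genes at 10 CPM or more in both materials the medians of the shortest and longest bins were 0.45 and −0.64. Exonic length moved the same way as intronic length, from a median of 0.16 in the shortest bin to −0.81 in the longest. Transcript GC content moved the other way, from a median of −0.75 in the lowest bin to 0.34 in the highest. Spearman's rho with the ratio across genes was −0.26 for intronic length, −0.20 for exonic length and 0.25 for GC content. These are described without a test because genes share libraries and the properties share base composition. The gene groups were not alike in length: 8 of 17 Hippo genes and 11 of 17 collagens were in the longest bin, none of the histones and 2 of 10 trophectoderm transcription factors. The part of gene length in each list's ratio was not tested.

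**Figure D4:**
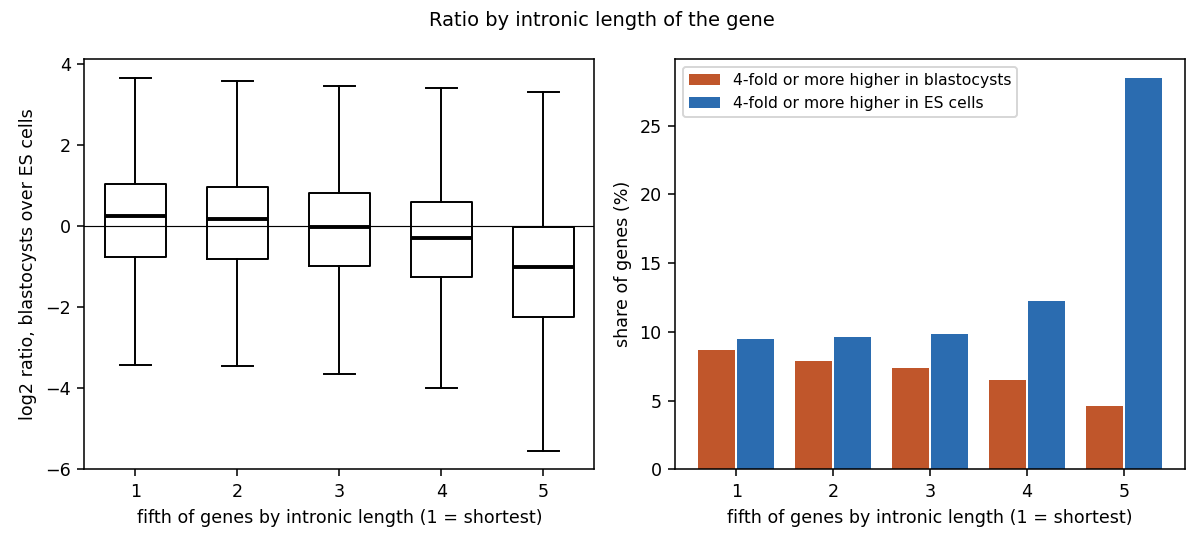
Left, log2 ratio of blastocyst over ES cell level (y axis) in 5 bins of genes by intronic length (x axis, 1 is the shortest); boxes span the quartiles, thick lines are medians and whiskers reach 1.5 box heights, with points beyond not drawn. Right, share of each bin, in percent, that is 4-fold or more higher in either material. The median goes from 0.26 to −1.01 and the ES cell share from 9.47% to 28.4%.

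KRAB and other zinc finger genes named Zfp leaned to ES cells. Of 297, 65 were 4-fold higher in ES cells and 7 in blastocysts, with a median of −0.77. Over all genes these were 13.9%, 6.98% and −0.17. Of the 297, 25, or 8.42%, were in the longest of the 5 equal bins. All 297 summed to 8148 CPM in blastocysts and 15013 in ES cells. Over the 227 solved on both sides, which are those low in blastocysts, the summed level was 1807 to 2699 CPM in the blastocyst columns. In the ES cell columns it was 5341 to 6378, so the sums did not overlap. Gene by gene, 74 of the 227 had ES cell columns wholly above, a share close to the 31.4% of all solved genes. Zfp945 (1.19 against 95.4) and Zfp367 (3.33 against 174) were the lowest, and Zfp703 (24.0 against 1.78) was the highest.

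Markers of other cells were measured beside these results. The 28 fibroblast genes stand for the feeder layer. Of 14 with a ratio, 9 were 4-fold higher in ES cells and none in blastocysts, with a median of −3.01. Of the other 14, 13 were listed at 0 in blastocysts and were at 5.42 (Twist2) to 186 (Col3a1) CPM in ES cells, and Bgn was at 0.28 against 122. The 14 summed to 525 CPM in blastocysts and 3377 in ES cells. Over the 10 solved on both sides, a set held to low blastocyst means by the solver, the summed level was 21.6 to 100.1 CPM in the blastocyst columns and 794, 804, 1284 and 744 in the ES cell columns. Fbn1, a microfibril gene, ran from 0 to 6.78 CPM in blastocysts, with a median of 0.60, against 221, 187, 313 and 197 in ES cells. Col5a2 read 87.9, 71.1, 284 and 94.7 in the ES cell columns. The third ES cell column was the highest for both, and it had the lowest sum of histones, 1570 CPM against 3694 to 4513 in the other 3. Without that column the medians of the fibroblast list and of the histones moved by less than 0.5 on the log2 scale. The fibroblast genes Thbs1 (22.5 against 1171) and Vim (28.7 against 390), and the matrix genes above, belong to the ES cell side of this comparison, and the part of feeder RNA in it was not tested.

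**Figure D5:**
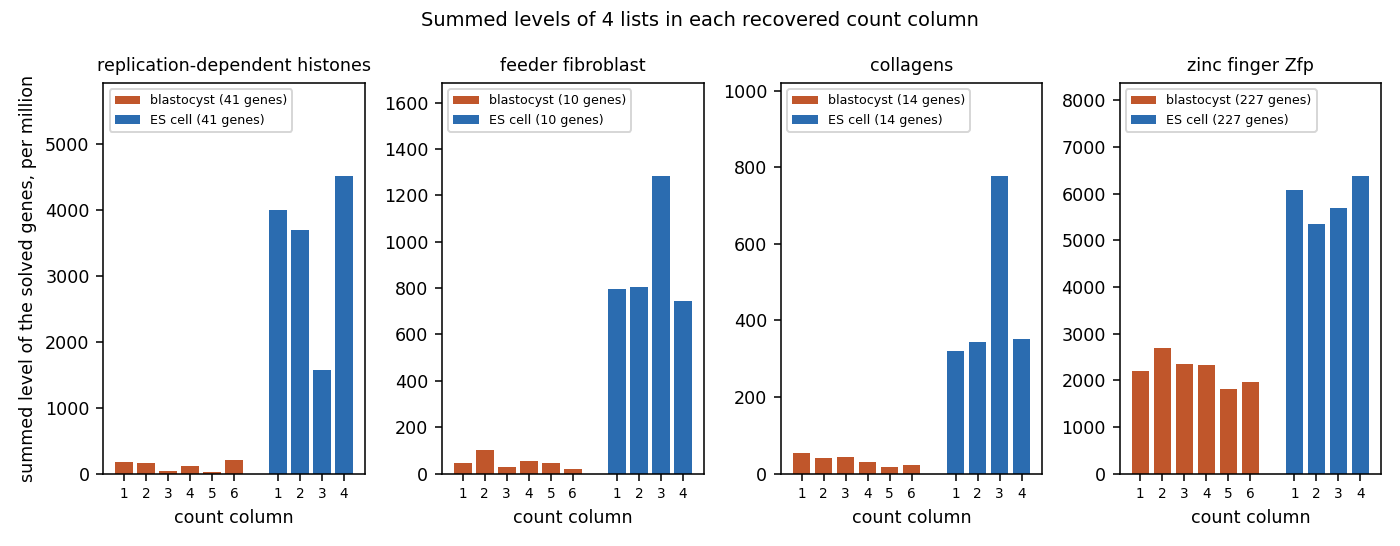
Summed level in CPM (y axis, starting at 0) of the genes solved on both sides in 4 lists, in each of the 6 blastocyst and 4 ES cell count columns (x axis); the columns are in order of size factor and were tied to no sample. Only genes low in blastocysts could be solved, which favours the ES cell side: the ES cell bars are above all blastocyst bars, while whole lists summed to 929 against 1519 CPM for collagens, 525 against 3377 for feeder genes, 8148 against 15013 for Zfp genes and 165 against 4101 for histones. In the bars the third ES cell column is the lowest for histones (1570) and the highest for feeder fibroblast genes (1284) and collagens (777).

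Markers of further cell types were also counted. Of 4 neural genes with a ratio, 3 were 4-fold higher in ES cells, led by Stmn2 (10.5 against 258 CPM), and the other 6 of the list were at 0 in blastocysts. Of those 6, Ncam1 was at 113 CPM in ES cells, Sox1 at 3.19 and Neurod1 at 1.95, and 3 had no ES cell value. Of 12 blood, endothelial and follicle cell genes only 2 had a ratio, neither past 4-fold. Of the other 10, 5 were at 0 in blastocysts, among them Inhba, a chain of activin, at 61.5 CPM in ES cells, Inha at 2.52, and the leukocyte gene Ptprc with no ES cell value. Of 22 oocyte-inherited genes 7 had a ratio, and Khdc3 was the 1 past 4-fold in blastocysts. Ooep (25.6 against 132), Nlrp4f (2.98 against 111) and Uchl1 (0.69 against 78.2) were higher in ES cells.

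Comparison between genes needs levels divided by exonic length, here scaled again to a sum of 1000000. By that measure, among the 11050 genes, the 5 most abundant of blastocysts were Psap (18252), Eef1a1 (13465), Eef2 (10027), Krt18 (8598) and Hsp90ab1 (6647). Those of ES cells were Ccnb1ip1 (19768), Cmss1 (16240), Eef1a1 (14783), Rplp1 (10137) and Spp1 (5291). Only the elongation factor Eef1a1 was in both, and its log2 ratio was 0.04. The ranks of Ccnb1ip1 and Cmss1 are uncertain, since reads of the overlapping genes Rpph1 and Filip1l may be mixed in, which was not tested. Psap had rank 337 in ES cells, and Spp1, the secreted phosphoprotein osteopontin, had rank 482 in blastocysts. By length, Krt18 (8598) exceeded its partner Krt8 in blastocysts, which stood at 4525.

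Most genes of the common machinery were within 4-fold, and several of these lists leaned to blastocysts. The shares past 4-fold over all genes were 6.98% in blastocysts and 13.9% in ES cells, with a median of −0.17. The 80 cytosolic ribosomal protein genes had a median log2 ratio of 0.00, a value whose sign changed with the scaling, and 75 were within 4-fold. Rps16 (log2 ratio 5.13), and on the other side Rpl24, Rpl23a and Rpl26 were among the 5 outside, and these are uncertain where near-identical copies could share reads, which was not tested. Respiratory chain genes had a median of 0.65 (71 of 75 within 4-fold and 57 above 0), proteasome genes 0.30 (37 of 39), translation factors 0.56 (52 of 58, with 44 above 0) and mitochondrial ribosomal proteins 0.31 (72 of 75). The proteasome median was −0.12 with the positive side of the authors' blastocyst comparison alone. Median intronic length was 5368 bases for respiratory chain genes and 4833 for mitochondrial ribosomal proteins. Both lie in the shortest bin of intronic length, whose own median log2 ratio was 0.26, and the part of length was not tested. ER chaperones were all within 4-fold, 17 of 17. Of 19 genes of the exosome, to which the deleted gene's product belongs, and of its SKI cofactor, 18 were within 4-fold and the median was 0.12.

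Dis3l itself was the exception of that list. Its level was 3.40 CPM in blastocysts and 17.3 in ES cells (chromosome 9, 64306756 to 64341288), with genotypes pooled. Blastocyst columns ran from 0 to 7.74, with a median of 2.98, and ES cell columns read 8.04, 26.7, 27.1 and 7.58 CPM. These columns overlap. In the authors' deposited table the log2 fold change of Dis3l between genotypes was 0.28 (standard error 1.91, adjusted p 0.997) in blastocysts and −0.88 (standard error 0.33, adjusted p 0.445) in ES cells. The direction of that comparison is not given in the sources used here.

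Few genes were called between genotypes, among those that differed between materials as among all genes. By the adjusted p-values of the authors' deposited tables, 0.131% of all genes with one were under 0.05 in blastocysts and 0.167% in ES cells. Among genes 4-fold higher in blastocysts the counts were 2 of 766 (0.26%) in blastocysts and 4 of 539 (0.74%) in ES cells. Among genes 4-fold higher in ES cells they were 2 of 1297 (0.15%) and 4 of 1486 (0.27%). For the 1297 genes the median standard error in blastocysts was 1.90 on the log2 scale, against 0.67 over all genes. A genotype difference could hardly be called there, so a lack of calls is not a lack of difference. The counts of called genes, 5 or fewer each, lie outside the naming rule, and their genes were chosen after their values were seen. In the authors' deposited table for blastocysts, Fabp5, a fatty acid binding protein, had a log2 fold change of −4.83 (standard error 0.96, adjusted p 0.0021) and Gstp2, a glutathione transferase, one of −2.14 (standard error 0.52, adjusted p 0.038). Fabp5 stood at 48.5 against 2.66 CPM between the materials, and Gstp2 at 83.8 against 4.03.

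The other 2 of the blastocyst table were Pkhd1 and Wdr35, both higher in ES cells and low in blastocysts (7.84 and 8.99 CPM). In the authors' deposited table for ES cells, the 4 genes higher in blastocysts were Pramel6, Pramel7, Serpinb6c and Tyro3, with log2 fold changes from −1.63 to −1.07. Pramel6, a member of a family of preimplantation genes, was at 286 CPM in blastocysts and 17.4 in ES cells. The 4 higher in ES cells were Meis2, Nell2, Rcsd1 and Tex15. Tex15, a germ cell gene, was the 1 with a positive sign in the authors' deposited table (log2 fold change 1.42, standard error 0.25, adjusted p 3.08e-05). Both materials' calls share the sign convention of their own table only, and no model across both was possible.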

How the data were processed

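The 12 samples in 4 groups were deposited as 2 tables of results, 1 per material, which hold no value per sample (0 such columns went unmatched). The signal column is the authors' mean of normalised read counts over libraries, per the file headers. Other columns, per the file headers, are the authors' log2 fold change between genotypes with its standard error, and their Wald score. P-values and adjusted p-values are likewise the authors', per the file headers. The submitters' processing notes name the build GRCm38 and the tools STAR 2.4.0b, bedtools, SAMtools, featureCounts, Subread 2.0.1 and DESeq2 1.34.0.

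Genes were joined on Ensembl identifier without version: 12914 were in both tables, 12414 of them autosomal and protein-coding, and 1363 of these had a blastocyst mean of 0. Means were scaled to a sum of 1000000 (CPM) and 1 CPM was added before the log2 ratio (Python 3.11.15, pandas 2.3.3). Each material has 1 value, so genes past 4-fold were counted with no test. Lengths, introns, GC content and overlapping genes came from GENCODE M21, for 11040 genes. Whole reads per count column were solved from means up to 80 in blastocysts (6896 of 7308 coding genes had 1 solution) and up to 500 in ES cells (12471 of 12517). Solver and ratio were tested on simulated data. For the solver, these data took the recovered size factors as given and covered only the lower part of the means solved. The number of columns and the higher means were therefore not tested. Members and all 42 gene lists were chosen with earlier results of these data known. Genes named were the 15 highest and 15 lowest ratios with 100 CPM or more in the higher material and a proper symbol, the 5 highest levels per length in each material, list members past 4-fold and 28 gene pairs; list members within 4-fold are named beside them. A few genes within these counts are not reported here by name. Alternatives changed the value added, the minimum level, the scaling, the chromosomes, the fold, the side of the authors' blastocyst comparison (rebuilt from mean and fold change) and, chosen after seeing the data, the ES cell count columns.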

Additional observations from a re-analysis of the deposited data

Results flagged for a closer look

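The 1363 autosomal protein-coding genes that ES cells held and that were listed at 0 in blastocysts entered no ratio. In counts per 1000000 (CPM) they summed to 33955 on the ES cell scale, with a median of 6.57 and a highest value of 2956. The highest with a proper symbol, named for those levels, were Mmp3 (811 CPM), Tenm4 (741), Hs6st3 (706) and Grem1 (555).

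In the 4 ES cell count columns, 1 column stood apart from the others for 4 results. About 1 in 20 groups of this size is marked so by chance, and more lists and genes than these were checked. The 4 results come from the same columns, and the feeder and collagen lists share genes, so the results are not independent. Feeder fibroblast genes reached 1284 CPM in the third column against 744 to 804 in the others, and collagens reached 777 against 320 to 350. Hist1h4a was lowest in the same column, at 96.6 against 214 to 225 CPM. Il31ra was highest in the first column, at 775 against 29.4 to 80.6 CPM.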

How the results depend on the processing

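The counts of genes past 4-fold, 771 in blastocysts and 1540 in ES cells, stayed within 1.5 times under 0.1 CPM added (838 and 1851), a minimum of 10 CPM, both other scalings, X-linked genes, either side of the authors' blastocyst comparison and leaving out the third ES cell count column, which was chosen after seeing the data. They moved with 10 CPM added, to 461 and 693, and at 8-fold, to 303 and 713. With 10 added the list medians moved to 1.89 for primitive endoderm, −1.45 for feeder fibroblast genes and −2.48 for replication-dependent histones, and with 0.1 added to −3.61 for feeder fibroblast genes and −5.65 for histones, since adding less widens the ratios of low genes. The positive side of the blastocyst comparison gave −1.60 for pluripotency factors and the negative side 1.66 for primitive endoderm, and the cause was not tested. Of the single-gene ratios, 115 moved with 10 CPM added (80 did not), 32 with 0.1 added, 43 and 33 with the positive and negative side of the blastocyst comparison and 6 without the third ES cell column; none past 4-fold changed sign. List medians near 0 did: cytosolic ribosomal proteins, proteasome, polycomb, Slc25 carriers, replacement histones, DNA methylation, fluid transport and exosome genes each changed sign under at least 1 alternative. No paired analysis was possible because the deposited means pool the samples and the count columns carry no replicate number. The low blastocyst levels rest on few reads, several on fewer than 20, and material and library protocol cannot be told apart.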

Other observations

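Genes that the ES cell table does not hold have no ratio, yet some were abundant in blastocysts. Of 8412 such autosomal protein-coding genes, 46 reached 100 CPM, counts per 1000000 on the blastocyst scale. Lcp1, an actin-bundling protein, stood at 1398 CPM, and the aminopeptidase gene Enpep at 1328. The cytokine receptor gene Csf3r was at 897 CPM, the tetraspanin gene Tspan8 at 803 and Havcr1 at 542. The preimplantation genes Crxos and Dppa1 were at 366 and 342 CPM. Carrier genes included Slc15a2 for peptides (325 CPM), Slc28a3 for nucleosides (266) and Slc34a2 for phosphate (150). No direction against ES cells was computed for any of them. They were chosen by level, after their values were seen.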
